A study of Mus musculus with 3 samples.

Results

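The cells described here were tumor-infiltrating CD8+ T cells with the highest levels of DNA replication transcripts, taken as T cells in S phase. Cells of all 3 libraries with 2000 to 120000 unique molecular identifiers (UMIs, each 1 counted RNA molecule) and at most 20% mitochondrial UMIs were pooled. Each cell was scored by the summed UMIs of Mcm2, Mcm4, Mcm5, Mcm6, Cdc6, Dtl, Hells, Ung, Chek1, Lig1 and Gins2 over its total UMIs. The 10% of pooled cells with the highest score were called S-phase cells, which gave 2845 members among 28452 cells that passed the filters, out of 31026 deposited cells. The lowest member had a score of 1059.21 (score genes' UMIs per 1000000 UMIs of the cell, CPM) and the highest cell outside had 1059.14, beside a median of 156 over all cells. Within 10% of that limit lay 579 cells inside and 625 outside, so the population is a range of a continuous score and not a separate cell type. These 11 score genes chose the members, so their levels are a description and no gene was tested between S-phase cells and other cells.

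The study built fusion proteins in which an active cytokine carries a part that holds another receptor chain but cannot signal by itself. This experiment asked how they shape T cells inside tumors. All cells came from TCR-transgenic pmel mice, whose Thy1.1+ CD8+ T cells recognize the melanoma antigen gp100, and were cultured with gp100 peptide and cytokine before transfer into irradiated C57BL/6 mice bearing subcutaneous B16F10 melanoma. The sIL-2 group had cells preconditioned with sIL-2 (super IL-2, a variant with high affinity for IL-2Rβ) and then low doses of sIL-2. In the IL-2/21-Trikine group, cells were preconditioned with, and mice then given, sIL-2 fused to a binder of IL-21Rα. The sIL-2 + IL-21 group had cells preconditioned with both cytokines, and by the study's methods these mice received sIL-2 alone. Injected cytokines were fused to mouse serum albumin. Tumors were taken on day 18 after tumor injection, and live single Thy1.1+CD8+ cells were sorted into 1 library per group by 10x 3′ single-cell RNA sequencing. C57BL/6 mice used at 1 of the study's sites were bought at 5 to 6 weeks of age. The site of this experiment, the ages at transfer and harvest, the age of the pmel donors and the number of mice pooled per library were not given in the sources used here. With 1 library per group there was no replicate check and no test between groups, and intervals in brackets are 95% intervals that cover counting error only. Where 3 values are given, sIL-2 comes first, then IL-2/21-Trikine, then sIL-2 + IL-21.

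S phase is the part of the cell cycle in which the genome is copied once. Origins are licensed beforehand by loading the MCM helicase, and E2F transcription factors, released from Rb family proteins by cyclin-dependent kinases, drive the genes for licensing, the replication fork, deoxynucleotide supply and new histones. Activated CD8+ T cells divide rapidly in response to antigen and to IL-2 family cytokines, so a share of the T cells in a tumor is in S phase at any time.

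The label was checked against markers outside the score. Pcna, the sliding clamp of DNA polymerase, was at 440.05, 437 and 412 CPM in S-phase cells and 132, 161 and 174 CPM in other cells (CPM here over the UMIs summed across the cells named). All 14 T cell identity genes were detected in S-phase cells, with Cd3e at 581, 522 and 481 CPM and Cd8a at 305, 288 and 176 CPM, and all 14 were lower than in other cells (medians of -0.31, -0.22 and -0.36 on the log2 scale). Markers of 6 other sources were low. The 16 myeloid genes summed to 132, 122 and 204 CPM in S-phase cells, nearly all of it Cst3 at 121, 114 and 196 CPM, while the macrophage gene Lyz2 was at 0.296, 0.566 and 0.156 CPM and Csf1r and C1qa were at 0 in the sIL-2 library. The 9 melanoma genes summed to 7.69, 6.04 and 6.05 CPM. B cell genes summed to 30.97, 32.9 and 9.60 CPM, mostly Ighm. The 6 NK cell genes summed to 5.23, 2.94 and 4.84 CPM and the 4 CD4 T cell genes to 9.17, 11.01 and 10.9 CPM, with Cd4 itself at 0.394, 0.226 and 1.17 CPM. The 6 erythroid genes summed to 0.789, 0.226 and 0.078 CPM, although other cells of the sIL-2 library held 74.9 CPM.

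Cells of other libraries could enter through shared cell barcodes, and 144 cells had a barcode seen in another library. The IL-2/21-Trikine library shared 25 barcodes with the sIL-2 library and 30 with the library of sIL-2 + IL-21, and those other two shared 17. Among those cells 13 were S-phase cells, and no barcode belonged to S-phase cells of both libraries. The doublet caller Scrublet marked 4, 0 and 0 cells, so it did not work as a filter and no cell was removed by it. S-phase cells held more RNA than other cells, with median UMIs of 27079, 18792 and 21883 beside 12805, 10808.5 and 13427, and doublets among them could not be told apart from large single cells by depth. Their median mitochondrial share was 1.46%, 1.43% and 1.39%, beside 1.26%, 1.30% and 1.34% in other cells.

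S-phase cells were rarest in the sIL-2 library. They were 360 of 7494 cells with sIL-2 (4.80% [4.33, 5.31]), 1364 of 11524 with IL-2/21-Trikine (11.8% [11.3, 12.4]) and 1121 of 9434 with sIL-2 + IL-21 (11.9% [11.2, 12.6]). Divided by the share of the sIL-2 library, that of the IL-2/21-Trikine library was 2.46 [2.20, 2.76], and divided by that of the library of sIL-2 + IL-21 it was 0.996 [0.925, 1.07]. The sIL-2 library's share over that of the library of sIL-2 + IL-21 was 0.404 [0.360, 0.453]. These 3 ratios share libraries, and the spread between mice or between libraries of a group was not measured.

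From 5000 to 29999 UMIs the share was larger in each deeper range of cells in every library, and the sIL-2 library was lowest in each range. Among cells of 5000 to 9999 UMIs it was 0.421% [0.192, 0.797], 1.77% [1.38, 2.23] and 2.34% [1.77, 3.05]. Among cells of 15000 to 19999 UMIs it was 3.91% [2.88, 5.18], 22.8% [20.8, 24.8] and 15.8% [14.01, 17.8], and at 20000 to 29999 UMIs it was 13.05% [11.1, 15.2], 29.5% [27.2, 31.8] and 23.1% [21.2, 25.2]. The IL-2/21-Trikine library thus exceeded the sIL-2 + IL-21 library in cells of 10000 to 29999 UMIs, and was below it at 5000 to 9999 UMIs and at 30000 to 120000 UMIs. In that deepest range the shares were 14.2% [12.02, 16.6], 17.4% [14.7, 20.3] and 18.7% [16.6, 20.96], so the sIL-2 library was, as a ratio, nearer to the others there than in the shallower ranges. Among the shallowest cells, of 2000 to 4999 UMIs, the share was 2.33% [0.759, 5.34], 9.69% [7.72, 11.96] and 8.47% [6.27, 11.1]. That range held 5, 77 and 46 members, whose score rests on few UMIs. Without cells under 5000 UMIs and with members otherwise as chosen, a setting chosen after seeing the data, the ratios were 2.46, 0.992 and 0.403. A score computed after thinning every cell to 2000 UMIs chose 58.8% of the same members and gave 2.02 in place of 2.46 and 0.852 in place of 0.996.

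**Figure D1:**
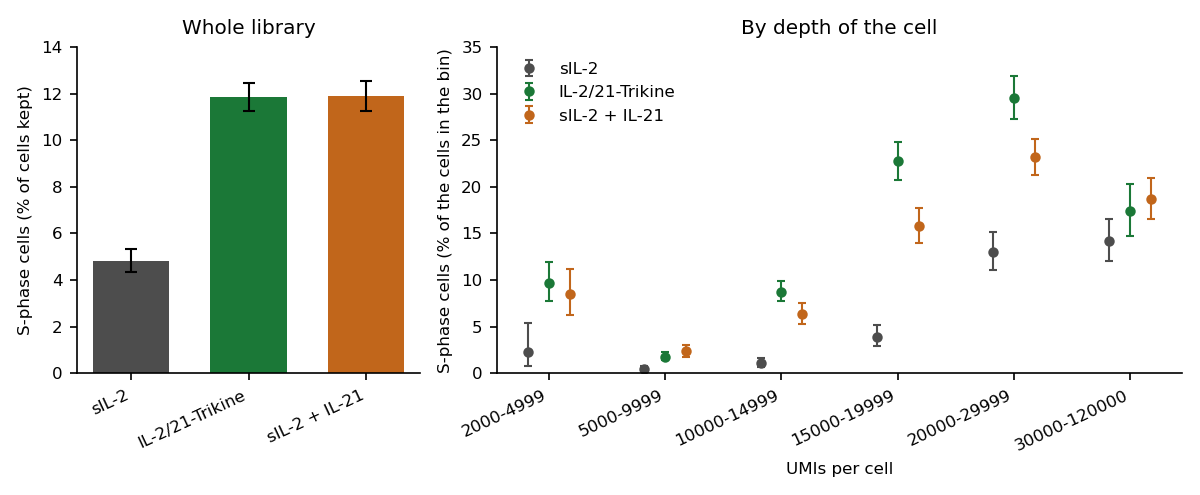
Share of cells (%) that were S-phase cells, for whole libraries (bars, left) and by range of total UMIs per cell (points, right), with 95% exact binomial intervals that cover counting error only. The sIL-2 library (4.80% of all its cells) is lowest in every range, and the largest share is 29.5%, among cells of 20000 to 29999 UMIs with IL-2/21-Trikine.

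Beyond the score genes, S-phase cells carried higher levels of genes for most steps of DNA replication. UMIs were summed over S-phase cells and over other cells of each library, 1 CPM was added, and 3248 genes with at least 50 CPM in either sum (mean of the libraries) were compared. At least 2-fold higher in S-phase cells of all 3 libraries were 69 genes (2.12% of those compared), and 8 genes were at least 2-fold lower in all 3 (0.246%). Of the 69, 55 belong to the lists of replication, repair, nucleotide, chromatin, histone and G1/S genes used here, and 4 of the 8 to the lists of cytokines and of quiescence genes. The limit bears on these counts, since 47 of the 69 reached 50 CPM only in S-phase cells, as did 304 of all genes compared, and 4 of the 8 only in other cells. The replication lists are therefore also counted over every gene in the files, with no limit on its level. By library, 170, 110 and 69 genes were at least 2-fold higher (5.23%, 3.39% and 2.12%) and 36, 13 and 15 at least 2-fold lower (1.11%, 0.4% and 0.462%). At any size, 46% of genes were higher and 36.4% lower in all 3 libraries, and the median of all genes was 0.03, 0.04 and 0.04. When members were chosen on UMIs set apart at random and levels measured on the rest, 68 genes were higher and 7 lower. The count of higher genes was 41 with the thinned score, 117 without the 10% of cells with the highest G2 and mitosis score, and 138 with each cell weighted equally.

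Among the score genes themselves, Cdc6, which loads the MCM helicase on origins, was at 77.7, 77.8 and 83.9 CPM in S-phase cells and 5.05, 9.63 and 14.2 CPM in other cells. As for most genes below, its level in S-phase cells was close between the libraries, while other cells were lowest with sIL-2. Fold differences of replication genes were accordingly widest in the sIL-2 library.

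Origin licensing and firing genes were higher in S-phase cells. Of the 9 list genes compared, 7 were at least 2-fold higher in all 3 libraries, with list medians of 2.10, 1.56 and 1.29 on the log2 scale. Over all 17 genes of the list, 14 were at least 2-fold higher and all were higher at some size. Mcm3, a subunit of the MCM helicase, was at 214, 193 and 202 CPM in S-phase cells and 37.7, 58.5 and 68.97 CPM in other cells. Its log2 differences were 2.47, 1.70 and 1.54. Cdc45, which activates the helicase, was at 78.4, 79.5 and 71.4 CPM in S-phase cells and 11.4, 20.1 and 23.3 CPM in other cells. For both genes the S-phase cells of every library lay above the other cells of all 3. Cdt1, which loads MCM together with Cdc6 and is destroyed once S phase begins, was at 65.5, 49.3 and 49.7 CPM against 20.4, 21.3 and 22.8 CPM. Its inhibitor Gmnn (geminin), which accumulates from S phase on, was at 239, 265 and 274 CPM against 49.96, 85.6 and 112 CPM. The exceptions were Orc2, a subunit of the origin recognition complex, and Dbf4, the activator of the Cdc7 kinase, which differed by 0.81, 0.60 and 0.75 and by 0.41, 0.31 and 0.29 on the log2 scale.

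At the replication fork, 13 of 20 list genes were at least 2-fold higher in all 3 libraries, with medians of 2.00, 1.53 and 1.26. With no limit on level, 19 of the 26 genes of the list were at least 2-fold higher and all 26 were higher at some size. Clspn (claspin), a fork protein that passes stalled-fork signals to Chek1, was at 144, 149 and 139.6 CPM in S-phase cells and 18.2, 31.2 and 40.6 CPM in other cells. Pola1, the catalytic subunit of the primase-associated DNA polymerase alpha, was at 221, 240.1 and 193 CPM against 38.6, 62.7 and 59.3 CPM. Other cells of the sIL-2 library had the lowest level of both genes. Pole, the leading-strand polymerase, was at 61.9, 64.1 and 51.97 CPM against 8.65, 16.3 and 17.3 CPM. Fen1, which removes the flaps of Okazaki fragments, was at 96.9, 92.6 and 89.7 CPM against 21.6, 28.7 and 35.5 CPM. Tipin, which stabilizes paused forks, was at 262, 262 and 277 CPM against 55.7, 86.8 and 113 CPM. The subunits of the clamp loader were all higher, with Rfc3, Rfc4 and Rfc5 past 2-fold in all 3 libraries and Rfc1 and Rfc2 short of it with sIL-2 + IL-21 (0.96 and 0.95 on the log2 scale). Outside the lists, Atad5, which unloads Pcna from finished DNA, was at 117, 113 and 110.1 CPM against 18.3, 26.9 and 32.3 CPM.

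Promoters of these genes are shown because E2F factors are known to drive them. In mouse RefSeq promoters (build GRCm38.p6, 250 bases before to 50 bases after the gene start), 4 E2F-type words, TTTCCCGC, TTTGGCGC, TTTCGCGC and TTTGCCGC, were searched on both strands. Among the 69 higher genes, 59 had a promoter in the table and 21 of these (35.6%) held a word. Of all genes compared, 174 of 2615 (6.65%) held one. So did 704 of the 27025 genes with any promoter (2.6%), or by window 744 of 32851 (2.26%). Licensing and firing genes held a word in 7 of 14 cases, fork genes in 6 of 20, nucleotide supply genes in 0 of 15, G2 and mitosis genes in 1 of 26, and the genes lower in S-phase cells in 0 of 5. A match is a description of letters and not a site. No entry was found for Ccne2, Pole, Prim2, Atad2, Esco2, Gmnn, Tipin, Usp1, Lilrb4b, Ccl4 and Ccl5. Higher genes with large differences and no word included Brca1, Rrm2, H1f1, Rad51b, Rad51ap1, Cdc45 and Wdhd1. The windows of 4 genes with a large difference and a word follow, read 5′ to 3′ along the gene. Words are in capitals. Clspn is at chr4:126556730-126557029 (plus strand), with TTTCGCGC on the opposite strand at bases 272 to 279 of the window. Atad5 is at chr11:80089150-80089449 (plus strand), with TTTCCCGC on the opposite strand at bases 273 to 280. Pola1 is at chrX:93632106-93632405 (minus strand), with TTTGGCGC on the opposite strand at bases 113 to 120. Mcm3 is at chr1:20820263-20820562 (minus strand), with TTTCCCGC on the opposite strand at bases 270 to 277. It also has TTTGGCGC on the gene's strand at bases 289 to 296.
Clspn: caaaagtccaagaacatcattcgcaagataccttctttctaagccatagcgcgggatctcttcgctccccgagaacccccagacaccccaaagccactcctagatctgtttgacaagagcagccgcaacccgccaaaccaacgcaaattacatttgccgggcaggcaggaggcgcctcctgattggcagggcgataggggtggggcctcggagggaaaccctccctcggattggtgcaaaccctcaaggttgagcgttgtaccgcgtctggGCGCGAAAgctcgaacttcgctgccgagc
Atad5: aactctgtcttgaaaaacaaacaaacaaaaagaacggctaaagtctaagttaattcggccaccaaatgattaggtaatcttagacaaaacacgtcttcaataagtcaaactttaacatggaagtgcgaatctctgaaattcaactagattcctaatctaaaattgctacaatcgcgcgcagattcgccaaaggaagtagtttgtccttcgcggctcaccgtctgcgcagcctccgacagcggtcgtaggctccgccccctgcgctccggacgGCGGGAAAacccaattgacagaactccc
Pola1: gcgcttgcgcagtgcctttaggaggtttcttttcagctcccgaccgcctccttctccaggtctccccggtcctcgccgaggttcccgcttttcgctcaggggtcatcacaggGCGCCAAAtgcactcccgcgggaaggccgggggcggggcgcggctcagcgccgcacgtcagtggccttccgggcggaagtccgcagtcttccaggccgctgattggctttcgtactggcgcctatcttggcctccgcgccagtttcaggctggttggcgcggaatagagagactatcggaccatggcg
Mcm3: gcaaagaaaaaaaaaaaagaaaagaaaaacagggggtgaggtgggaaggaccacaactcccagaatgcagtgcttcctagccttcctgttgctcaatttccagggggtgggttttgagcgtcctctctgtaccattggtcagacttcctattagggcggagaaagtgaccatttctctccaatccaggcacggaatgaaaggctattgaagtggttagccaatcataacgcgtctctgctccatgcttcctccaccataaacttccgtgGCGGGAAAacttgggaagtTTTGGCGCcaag

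Genes of nucleotide supply were higher in S-phase cells. Of 12 list genes compared, 7 were at least 2-fold higher in all 3 libraries, with medians of 1.85, 1.49 and 1.10. With no limit on level it was 8 of 16. Rrm2, the S-phase-limited subunit of ribonucleotide reductase, was at 243, 242 and 250.1 CPM in S-phase cells and 34.7, 57.8 and 79.1 CPM in other cells. Tyms, which makes thymidylate, was at 161, 168 and 149 CPM against 30.9, 50.3 and 64.01 CPM. For both genes the S-phase cells of the 3 libraries lay close together and above the pooled other cells. Other cells high for G2 and mitosis genes (defined below) were nearer, with Rrm2 at 178, 189 and 192 CPM and Tyms at 119, 135 and 129 CPM. The purine enzymes Paics and Impdh2 differed by 0.93, 0.84 and 0.63 and 0.97, 0.64 and 0.59 on the log2 scale, short of 2-fold.

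**Figure D2:**
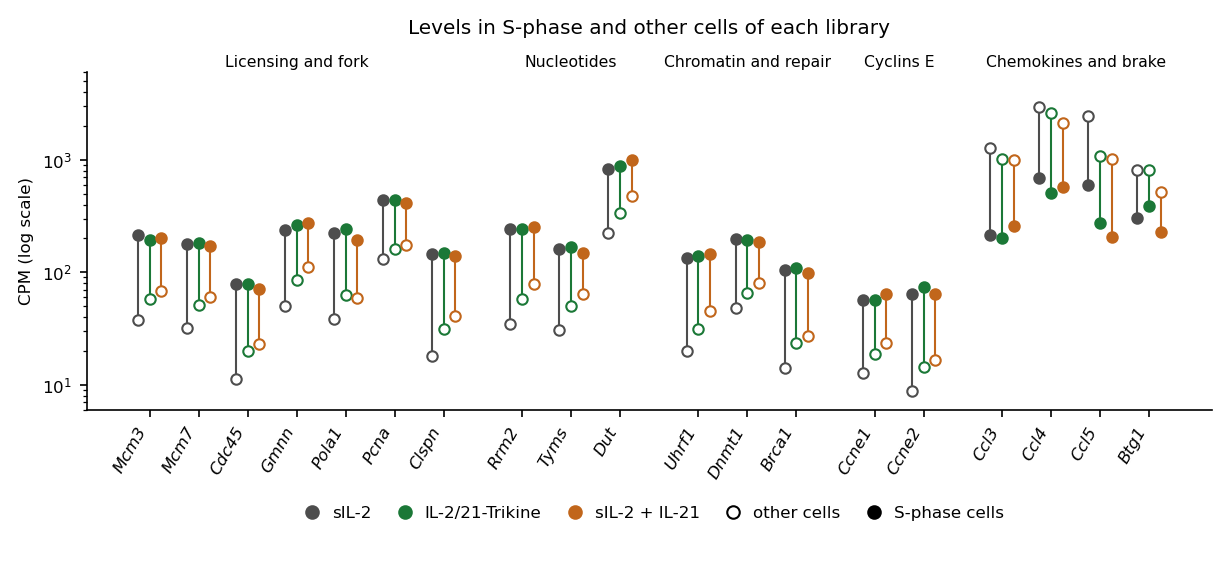
Level (CPM, log axis) of genes outside the score in S-phase cells (filled points) and other cells (open points) of each library, joined by lines. Replication genes are close among S-phase cells (Rrm2 at 243, 242 and 250.1 CPM) and lowest in other cells of the sIL-2 library (Rrm2 at 34.7, 57.8 and 79.1 CPM), while Ccl3, Ccl4, Ccl5 and Btg1 lie lower in S-phase cells.

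Factors that copy chromatin and DNA methylation were higher, 9 of 11 by at least 2-fold in all 3 libraries (medians 1.79, 1.37 and 1.10), or 12 of 16 with no limit on level. Uhrf1, which recognizes hemimethylated DNA behind the fork, was at 133, 140.4 and 145 CPM in S-phase cells and 19.9, 31.1 and 45.1 CPM in other cells. Dnmt1, the maintenance methyltransferase that Uhrf1 recruits, was at 199, 193 and 185 CPM against 48.7, 65.3 and 81.1 CPM. Both lay well above other cells in every library. Ezh2, the methyltransferase of H3 lysine 27, was at 316, 314 and 282 CPM against 101, 130.1 and 139.9 CPM. Hat1, which acetylates new histone H4, and Rbbp7, a histone chaperone, differed by 1.46, 1.18 and 0.99 and 1.02, 0.79 and 0.80 on the log2 scale.

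Clustered histone genes were higher, 4 of 10 by at least 2-fold in all 3 libraries (medians 1.59, 0.91 and 0.82), and 4 of 29 with no limit on level. Their mRNAs mostly lack poly(A) tails and the genes are near-identical copies, so levels from a 3′ poly(A) assay are uncertain. H1f5, a linker histone, was at 693, 454 and 569 CPM in S-phase cells and 137, 183 and 255 CPM in other cells. H1f1 was at 66.6, 38.96 and 54.8 CPM against 9.13, 10.9 and 17.05 CPM. Both linker histones were highest in S-phase cells of the sIL-2 library. H2ac8, an H2A gene, was at 200.4, 108 and 145 CPM against 43.95, 50.4 and 70.3 CPM. H3c3, an H3 gene, was at 212, 195 and 193 CPM against 65.4, 103 and 120.2 CPM, which was short of 2-fold outside the sIL-2 library. Slbp, which binds the histone mRNA stem-loop, was at 281, 289.8 and 267 CPM against 107, 131 and 130.4 CPM.

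Regulators of S-phase entry divided by cyclin type. Of 10 G1/S genes compared, 5 were at least 2-fold higher in all 3 libraries (medians 1.41, 1.16 and 1.03), and 2 were lower in all 3. With no limit on level, 13 of 19 were at least 2-fold higher and 2 were lower. Ccne2, an E-type cyclin that activates Cdk2, was at 63.9, 74.7 and 63.7 CPM in S-phase cells and 8.89, 14.3 and 16.7 CPM in other cells, with log2 differences of 2.71, 2.30 and 1.87, and its smallest difference over the libraries was the largest of all genes compared. Ccne1 was at 56.6, 57.1 and 63.9 CPM against 12.9, 18.7 and 23.5 CPM. Fbxo5, which restrains the anaphase-promoting complex so that S phase can proceed, was at 87.97, 94.9 and 80.3 CPM against 15.5, 28.5 and 29.3 CPM. The 3 genes were each highest in S-phase cells of every library. The D-type cyclins, which act earlier in G1, were lower, with Ccnd2 at 301, 315 and 306 CPM against 456, 418 and 377 CPM and Ccnd3 at 87.5, 88.9 and 77.1 CPM against 128, 113 and 96.04 CPM. Several E2F genes lay under the 50 CPM limit and were not counted; E2f1 was at 40.6, 40.6 and 35.4 CPM against 5.17, 7.998 and 10.3 CPM.

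Replication-coupled repair genes were higher in S-phase cells, 17 of the 18 in the list by at least 2-fold in all 3 libraries with no limit on level. All 10 that reached 50 CPM were among them, with medians of 2.33, 1.82 and 1.45, although 9 of the 10 reached it only in S-phase cells, which favors genes that are higher there. Brca1, which acts in homologous recombination and fork protection, was at 105, 109 and 99.3 CPM in S-phase cells and 14.3, 23.4 and 27.02 CPM in other cells. Brip1, a helicase partner of Brca1, was at 75.4, 80.9 and 61.8 CPM against 11.7, 20.4 and 20.8 CPM. No level in other cells reached that of S-phase cells for either gene. Usp1, which removes ubiquitin from Pcna and Fancd2, had the smallest differences of the 10, at 1.37, 1.09 and 1.05. By contrast 4 compared p53 target genes were lower in S-phase cells, with medians of -0.36, -0.22 and -0.31.

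Of 20 genes of G2 and mitosis compared, 16 were higher and 2 lower in S-phase cells of all 3 libraries, and none was 2-fold higher in all 3. Of these 20, 5 reached 50 CPM only in S-phase cells, and with no limit on level 21 of 30 were higher and 2 lower. Their medians were 1.24, 0.69 and 0.43, so the sIL-2 library had the widest difference. Mki67, the proliferation marker Ki-67, was at 344, 314 and 311 CPM in S-phase cells and 112, 154 and 184 CPM in other cells. Top2a, which untangles replicated DNA, was at 575, 646 and 526 CPM against 189.5, 301 and 311 CPM. Both begin to be made in S phase and were higher in all 3 libraries. Ube2c, which works with the anaphase-promoting complex in mitosis, was lower at 126, 95.8 and 119 CPM against 162, 195 and 251 CPM. Cenpf, a kinetochore protein, was at 60.1, 65.1 and 47.8 CPM against 52.7, 74.8 and 79.4 CPM, and its difference changed sign between libraries (0.19, -0.20 and -0.72). Cenpa, the centromeric histone, differed by -0.03, -0.26 and -0.23.

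To see how far the S-phase cells overlapped later phases, the 10% of pooled cells with the highest share of G2 and mitosis genes were marked. They made up 19.7% [15.7, 24.2], 18.2% [16.2, 20.3] and 13.02% [11.1, 15.1] of S-phase cells and 5.45% [4.94, 6.01], 9.66% [9.09, 10.2] and 12.1% [11.5, 12.9] of other cells. In counts, 71, 248 and 146 cells were high for both scores, and 289, 1116 and 975 were S-phase cells alone. Mcm3 was at 225, 199 and 207 CPM in cells high for the S-phase score alone, 162, 166 and 165 CPM in cells high for both, and 90.4, 98.6 and 97.6 CPM in cells high for G2 and mitosis alone. Clspn was at 128, 137 and 131 CPM, 217, 208 and 205 CPM and 85.1, 94.5 and 91.2 CPM in the same classes. Mcm3 was thus highest in cells of the S-phase score alone and Clspn in cells of both, and other genes of the same kind had other orders. Mcm7, another subunit of the helicase, was at 179.7, 179.95 and 169 CPM in cells of the S-phase score alone and 181, 188 and 180.1 CPM in cells of both. Tipin, at the fork like Clspn, was at 269, 264 and 278 CPM and 228, 257 and 268 CPM. H1f5 was at 522, 333 and 511 CPM, 1459, 1013 and 1012 CPM and 801, 722 and 779 CPM. Ccne2 was at 61.7, 71.5 and 63.1 CPM, 73.9, 89.4 and 68.7 CPM and 19.7, 22.7 and 20.03 CPM. These classes were cut from scores of the same cells, and their levels carry no test.

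**Figure D3:**
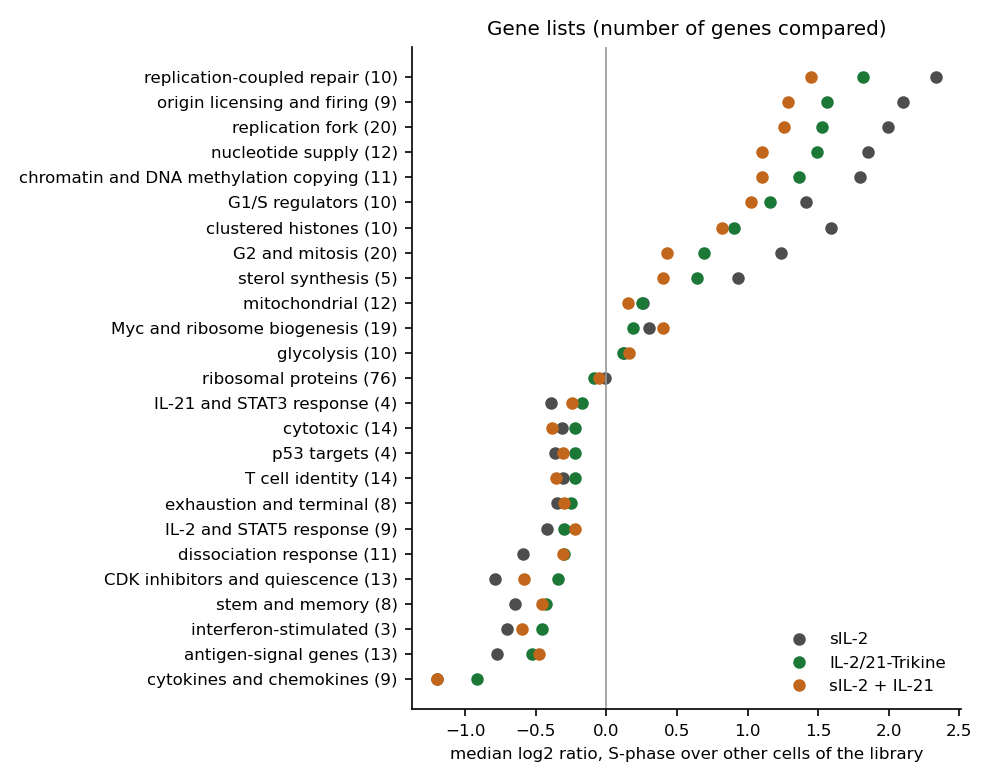
Median log2 difference (S-phase cells over other cells, 1 CPM added) of the compared genes of each list, 1 point per library, with the number of genes compared in parentheses. Replication-coupled repair genes lie at 2.33, 1.82 and 1.45 (libraries as ordered in the text), G2 and mitosis genes at 1.24, 0.69 and 0.43, and cytokines and chemokines at -1.20, -0.91 and -1.20.

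Levels of replication genes climbed with the score outside the 10% limit too. Pooled cells were ranked by the score in 10 equal parts, with cells of score 0 kept together, which left 9 bins. Of 3248 genes, 320 had a Spearman rank correlation of at least 0.9 with the bin number in all 3 libraries, and 32 had -0.9 or below in all 3; these describe 9 bins of the same cells. Among those with the strongest pattern were Smc2, Clspn, Rrm2, Mcm3, Mms22l, Fen1, Gmnn and Tipin. Clspn was at 1.09, 1.85 and 2.17 CPM in the lowest bin, 89.5, 91.9 and 97.2 CPM in the bin next to the highest and 144, 149 and 139.6 CPM in the highest. Thus the bin just under the limit held replication transcripts as well. Ccl3 was at 1555, 1323 and 1794 CPM in the lowest bin and 704, 371 and 587 CPM in the bin next to the highest. Btg1 was at 1173, 1243 and 1009 CPM in the lowest bin, 694, 705 and 499.7 CPM in the next, whose cells were deeper, and 302, 389 and 228 CPM in the highest. Within the S-phase cells, those with lower scores had Ccl3 at 251, 289 and 308 CPM and those with higher scores at 170.1, 118 and 182 CPM. Btg1 was at 304, 415 and 219.8 CPM in those with lower scores and 299, 365 and 239 CPM in those with higher scores, and Ccl5 at 631, 269.9 and 236 CPM and 542, 275 and 166 CPM. Ccl3 was lower at higher scores in all 3 libraries, whereas Btg1 with sIL-2 + IL-21 and Ccl5 with IL-2/21-Trikine were not.

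**Figure D4:**
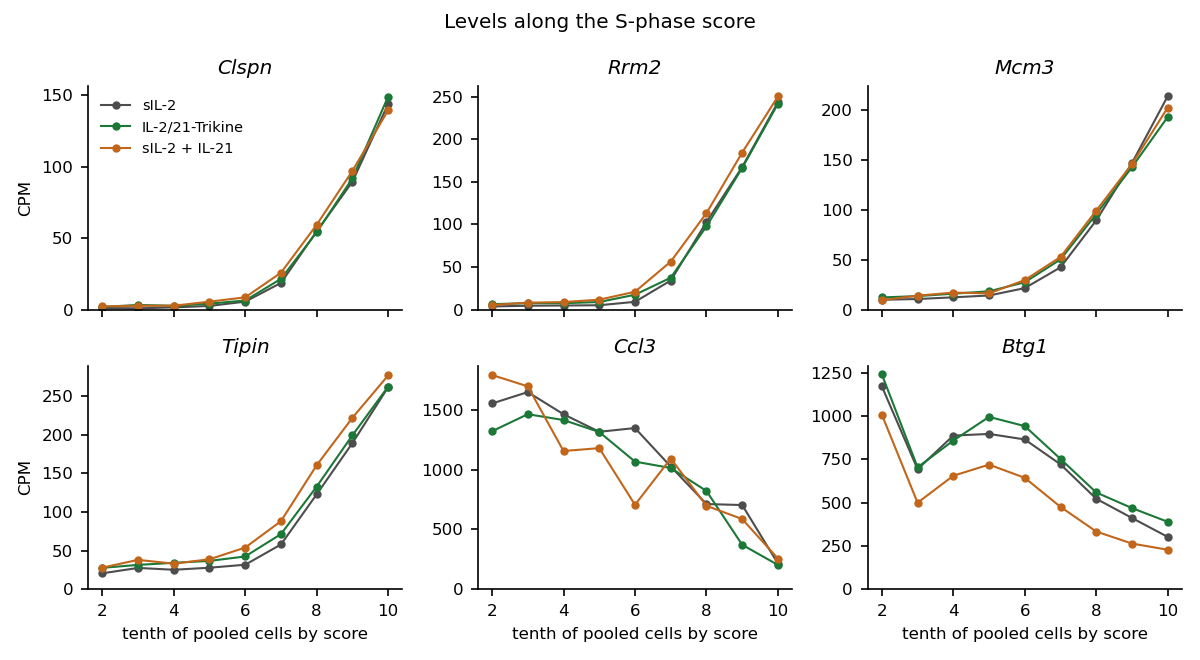
Level (CPM) of 6 genes in 9 bins of pooled cells ranked by the S-phase score, 1 line per library; the first bin holds all cells with score 0 and the last is the S-phase cells. Clspn climbs to 144, 149 and 139.6 CPM in the last bin, and Ccl3 goes from 1555, 1323 and 1794 CPM in the first to 214, 202 and 256 CPM in the last, with Btg1 dipping in the next-lowest bin.

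Chemokine and cytokine transcripts were lower in S-phase cells. All 9 list genes compared were lower in all 3 libraries, and 3 of them, Ccl3, Ccl4 and Ccl5, by at least 2-fold, with list medians of -1.20, -0.91 and -1.20. Of the 9, 1 reached 50 CPM only in other cells, and with no limit on level 14 of 15 were lower and 0 higher. Ccl3, a chemokine that recruits leukocytes, was at 214, 202 and 256 CPM in S-phase cells and 1263, 1006 and 995 CPM in other cells. Ccl4, a related chemokine encoded beside it, was at 690.2, 508 and 575 CPM against 2924, 2589.9 and 2132 CPM. Ccl5 was at 591, 273 and 207 CPM against 2421, 1068 and 1019.8 CPM. None of the S-phase levels reached the level of the pooled other cells in any library. The low levels were not particular to S-phase cells. Other cells high for G2 and mitosis alone had Ccl3 at 303, 165 and 194 CPM. Their Ccl4 was at 655, 421 and 565 CPM and their Ccl5 at 536, 211 and 196 CPM. Cells of the S-phase score alone had Ccl3 at 233, 232 and 280 CPM, and cells high for neither score had 1375, 1173 and 1172 CPM. Whether reads were split between the related genes Ccl3 and Ccl4 was not tested. Xcl1, which attracts cross-presenting dendritic cells, was at 1625, 2475 and 1327 CPM against 4507, 4664 and 3202 CPM. Ifng, the effector cytokine interferon gamma, was at 582, 278 and 369 CPM against 901, 687 and 719 CPM. Under the 50 CPM limit, Il2 was at 2.66, 2.64 and 2.81 CPM against 39.7, 23.96 and 27.03 CPM and Il3 at 2.86, 1.92 and 5.77 CPM against 58.5, 23.8 and 52.8 CPM.

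Because S-phase cells were deeper, shares of cells with a transcript were compared after every cell was thinned to 2000 UMIs. Ccl5 was seen in 42.5% [37.3, 47.8], 29.8% [27.3, 32.3] and 22.6% [20.2, 25.1] of S-phase cells and 77.1% [76.1, 78.1], 58.03% [57.1, 58.99] and 47.3% [46.3, 48.4] of other cells, and without thinning in 92.5, 74.4 and 69.8% and 95.4, 85.7 and 78.7%. Ccl3 was seen in 14.2% [10.7, 18.2], 14.4% [12.5, 16.3] and 16.9% [14.8, 19.3] and 26.03% [25.02, 27.1], 24.4% [23.6, 25.3] and 22.6% [21.7, 23.5], and without thinning in 57.8, 46.99 and 51.9% and 51.7, 45.6 and 49.3%. The thinned shares of both genes were lower in S-phase cells of every library. For Xcl1 the thinned shares were 53.6% [48.3, 58.9], 72.7% [70.2, 75.01] and 57.2% [54.2, 60.1] and 53.6% [52.4, 54.8], 68.8% [67.9, 69.7] and 56.7% [55.6, 57.7], close to each other although its level was lower, and without thinning they were 92.5, 95.7 and 93.1% and 84.6, 91.5 and 86.5%. As a measure of free RNA, Tyrp1, a melanoma gene that T cells lack, was seen without thinning in 0.785, 0.787 and 0.638% of other cells. No cells that lack the chemokines were set apart for comparison, so their own share from free RNA was not measured.

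Genes that restrain division were lower as a group. Of 13 CDK inhibitor and quiescence genes, 11 were lower in all 3 libraries, 1 of them by at least 2-fold, and 2 were higher (medians -0.79, -0.34 and -0.58). Of the 13, 1 reached 50 CPM only in other cells, and with no limit on level 13 of 18 were lower and 3 higher. Btg1, an antiproliferative factor of quiescent lymphocytes, was at 302, 389 and 228 CPM in S-phase cells and 817, 811 and 519 CPM in other cells. Other cells high for G2 and mitosis alone had Btg1 at 408, 518 and 336 CPM, and cells high for neither score had 865, 869 and 559 CPM. After thinning, Btg1 was seen in 43.9% [38.7, 49.2], 52.5% [49.8, 55.2] and 37.6% [34.7, 40.5] of S-phase cells and 77.4% [76.5, 78.4], 78.02% [77.2, 78.8] and 65.1% [64.1, 66.1] of other cells, and without thinning in 98.6, 96.3 and 93.1% and 99.1, 99.1 and 98.1%. Cdkn1a, the CDK inhibitor p21, was at 257, 155 and 193 CPM against 504, 218 and 288 CPM. The low level was that of cells of the S-phase score alone (213, 132 and 179 CPM). S-phase cells also high for G2 and mitosis had Cdkn1a at 453, 260 and 300 CPM, and cells high for neither score had 532, 235 and 302 CPM. Cdkn1b, the CDK inhibitor p27, was at 63.3, 60.6 and 49.2 CPM against 113, 91.8 and 74.2 CPM. Both inhibitors were highest in other cells of the sIL-2 library. The higher pair were Rb1 and Rbl2, pocket proteins that bind E2F factors, at 0.45, 0.57 and 0.21 and 0.12, 0.15 and 0.04 on the log2 scale.

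Genes induced by antigen receptor signals were lower, 12 of 13 in all 3 libraries, none by 2-fold in all (medians -0.78, -0.53 and -0.48). Of the 13, 2 reached 50 CPM only in other cells, and with no limit on level 14 of 16 were lower and 1 higher. Nr4a1, an early nuclear receptor of T cell receptor signaling, was at 146, 104 and 92.4 CPM in S-phase cells and 363, 192 and 166 CPM in other cells. Dusp5, a phosphatase of ERK, was at 247, 148 and 193 CPM against 543, 317 and 316 CPM. Cd69, an early activation marker, was at 238, 273 and 293 CPM against 434, 451 and 421 CPM. Dissociation response genes, which tissue digestion is known to induce, were lower in 9 of 11 cases (medians -0.59, -0.30 and -0.30), and their part in the differences of this group was not tested. Fos was at 45.8, 72.95 and 89.2 CPM against 105, 102 and 125 CPM. Outside the lists, the genes at least 2-fold lower in all 3 libraries were Gm26740, Vsir (the checkpoint receptor VISTA), Lilrb4b (an inhibitory receptor with the near-identical copy Lilrb4a) and Kdm7a (a histone demethylase). Vsir was at 31.2, 27.2 and 20.2 CPM against 91.1, 58.8 and 46.9 CPM.

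All 8 compared stem and memory genes were lower in S-phase cells of all 3 libraries, with medians of -0.65, -0.43 and -0.46. Bach2, a repressor that holds back effector differentiation, was at 290.04, 359 and 178 CPM in S-phase cells and 553, 456 and 284 CPM in other cells. Ccr7, the lymph node homing receptor, was at 226, 391 and 193 CPM against 299, 477 and 250.3 CPM. S-phase cells of the IL-2/21-Trikine library had the highest level of Ccr7 among S-phase cells, and the same order held in other cells. Tcf7, the transcription factor of stem-like T cells, lay under the 50 CPM limit at 31.1, 41.2 and 11.8 CPM against 62.8, 63.4 and 23.4 CPM. Of 8 exhaustion genes, 6 were lower in all 3 libraries (medians -0.35, -0.25 and -0.30), and Pdcd1, the receptor PD-1, was at 222, 119 and 159.9 CPM against 169, 99.1 and 174 CPM, with a difference that changed sign (0.39, 0.27 and -0.12). Thinned to 2000 UMIs, Pdcd1 was seen in 29.4% [24.8, 34.4], 19.2% [17.1, 21.4] and 27.03% [24.4, 29.7] of S-phase cells and 20.96% [20.02, 21.9], 13.7% [13.02, 14.4] and 22.8% [21.9, 23.7] of other cells, a larger share of S-phase cells in each library, and without thinning in 82.5, 62.9 and 75.6% and 53.7, 40.99 and 60.4%; no direction was read for sIL-2 + IL-21, where the share went against the level. Of 14 cytotoxic genes, 11 were lower in all 3 (medians -0.32, -0.22 and -0.38), while Gzmb, granzyme B, was higher at 4186, 2943 and 5954 CPM against 3394, 2739.8 and 5198 CPM. All 9 IL-2 and STAT5 response genes were lower, with medians of -0.42, -0.30 and -0.22, and Il2ra, the high-affinity IL-2 receptor chain, was at 270.3, 245 and 286 CPM against 404, 290.04 and 319 CPM. Of the 4 IL-21 and STAT3 response genes compared, 3 were lower, with medians of -0.39, -0.17 and -0.24.

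Interferon-stimulated genes were lower, though only 3 of 18 passed the 50 CPM limit (medians -0.71, -0.46 and -0.60). Of these 3, 1 reached it only in other cells. With no limit on level, 16 of 18 were lower in all 3 libraries and 0 higher. Isg15, a ubiquitin-like modifier, was at 70.9, 69.6 and 25.4 CPM in S-phase cells and 148, 132 and 49.3 CPM in other cells. Cells with 3 or more interferon-stimulated genes after thinning were 8.33% [5.69, 11.7], 7.77% [6.41, 9.32] and 2.59% [1.74, 3.69] of S-phase cells and 21.8% [20.8, 22.7], 17.4% [16.6, 18.1] and 6.96% [6.43, 7.53] of other cells, and without thinning 76.1, 64.3 and 46.7% and 69.2, 62.4 and 50.1%. The sIL-2 + IL-21 library was lowest on each side.

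Of 19 Myc and ribosome biogenesis genes, 13 were higher and 4 lower in all 3 libraries (medians 0.31, 0.19 and 0.40), with Ran, the nuclear transport GTPase, at 1223, 1240.04 and 1436 CPM in S-phase cells and 651, 841 and 959 CPM in other cells. Myc itself was lower at 79.3, 75.7 and 56.03 CPM against 107, 115 and 69.7 CPM. Of the 19 sterol synthesis genes, 17 were higher in all 3 libraries with no limit on level and none by 2-fold in all 3. The 5 that reached 50 CPM were all higher (medians 0.93, 0.64 and 0.40), though 4 of them reached it only in S-phase cells. Idi1, an isomerase of the mevalonate pathway and 1 of the 5, was at 88.2, 92.3 and 142 CPM against 34.97, 48.3 and 91.2 CPM. Glycolysis genes were higher in 7 of 10 cases and by little (medians 0.13, 0.12 and 0.16). Of 76 ribosomal protein genes, 44 were lower and 13 higher in all 3 libraries, with medians near 0 (-0.01, -0.09 and -0.05), and mitochondrially encoded genes at 0.26, 0.25 and 0.15.

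Between the libraries, S-phase cells were compared directly, gene by gene, in 3 pairs that share libraries. Genes with at least 50 CPM in S-phase cells of either library of a pair were compared. A gene could thus pass this limit only through the library where it was higher, which bears on the counts below. IL-2/21-Trikine set against sIL-2 had 1 of 3235 genes at least 2-fold higher (0.0309%) and 14 lower (0.433%), 15 in all (0.464%). Set against sIL-2 + IL-21 it had 20 of 3181 higher (0.629%) and 22 lower (0.692%), 42 in all (1.32%). The sIL-2 library set against that of sIL-2 + IL-21 had 10 of 3254 higher (0.307%) and 7 lower (0.215%), 17 in all (0.522%). By the same rule in other cells, the first pair had 1 gene higher (0.0318%) and 14 lower (0.445%), the second 12 (0.397%) and 27 (0.893%), and the third 36 (1.13%) and 29 (0.909%). Replication genes did not differ by 2-fold in any pair. For IL-2/21-Trikine set against sIL-2, the medians of the licensing, fork, nucleotide and repair lists were 0.02, 0.02, -0.01 and 0.05 in S-phase cells, and 0.49, 0.47, 0.40 and 0.51 in other cells. Once chosen by the same score, S-phase cells carried replication transcripts at like levels in the 3 libraries, which the choice of members by 1 score for all libraries partly fixes.

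S-phase cells of the IL-2/21-Trikine library had lower levels of several cytotoxic transcripts. Of 14 cytotoxic genes compared, 5 were at least 2-fold lower than with sIL-2 and 7 than with sIL-2 + IL-21, and none was at least 2-fold higher. At any size, 3 of the 14 were higher than with sIL-2 and 6 than with sIL-2 + IL-21, with list medians of -0.38 and -0.52. Over all genes compared, 1339 of 3235 were higher than with sIL-2 and 1522 of 3181 than with sIL-2 + IL-21. The 6 of 14 thus lay near the share of all genes. Gzma, granzyme A, was at 3614, 1074 and 3769 CPM in S-phase cells, a log2 difference of -1.75 [-1.77, -1.73] from sIL-2, and -1.84 in other cells. Gzmf, a granzyme of activated killer cells, was at 511, 179 and 817 CPM, with -1.51 [-1.57, -1.46] from sIL-2. Gzmd, Gzme and Gzmf are near-identical copies, so their reads may be split among them. Havcr2, the inhibitory receptor TIM-3, was at 126, 48.96 and 132 CPM, with -1.35 [-1.46, -1.24] from sIL-2 and -1.30 in other cells. Fcer1g, an ITAM-bearing signaling chain, was at 171, 41.5 and 127 CPM, with -2.02 [-2.12, -1.91] from sIL-2. Klra5, a Ly49 family receptor, was at 135, 41.5 and 130.2 CPM. In these genes the IL-2/21-Trikine library was the lowest of the 3, and other cells differed in the same direction. H2ac24, a clustered H2A gene, was at 132, 44.9 and 71.3 CPM, with -1.53 [-1.64, -1.42] from sIL-2 and -0.60 in other cells. Cd74, the invariant chain of MHC class II, was the gene at least 2-fold higher than with sIL-2, at 20.9, 51.3 and 25.7 CPM (1.25 [1.05, 1.47]), and 1.83 in other cells. It passed the 50 CPM limit only through the IL-2/21-Trikine library, and by little. Thinned, Cd74 was seen in 4.44% [2.56, 7.12], 8.94% [7.48, 10.6] and 4.64% [3.48, 6.04] of S-phase cells. Next, short of 2-fold, were Nrn1, a neuritin gene, at 38.4, 71.3 and 34.6 CPM and Ccr7 at 226, 391 and 193 CPM (0.79 [0.72, 0.85]).

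Several genes were set apart in S-phase cells of the sIL-2 + IL-21 library. Mt1, a metal-binding stress protein, was at 249, 178 and 1082 CPM in S-phase cells, log2 differences of -2.60 [-2.64, -2.55] in the IL-2/21-Trikine library and -2.11 [-2.17, -2.05] in the library of sIL-2, each set against the sIL-2 + IL-21 library. Mt2 was at 125, 78.005 and 543 CPM. Il1r2, the decoy receptor of IL-1, was at 17.2, 10.8 and 50.7 CPM, past the 50 CPM limit only with sIL-2 + IL-21. All 3 were highest with sIL-2 + IL-21, and in other cells the log2 differences of Mt1 were -2.34 and -2.31. Isg15 was at 70.9, 69.6 and 25.4 CPM, with 1.42 [1.29, 1.55] for IL-2/21-Trikine set against the same library. Ifi27l2a, an interferon-induced membrane protein gene, was at 368, 556 and 194 CPM. Ifi214, of the interferon-induced HIN-200 family, was at 50.8, 52.2 and 14.5 CPM, and like Isg15 was below the 50 CPM limit with sIL-2 + IL-21. These 3 were lowest with sIL-2 + IL-21. Of the interferon list, 3 genes could be compared with the IL-2/21-Trikine library, where 2 of them were at least 2-fold higher. Tnfsf8, the CD30 ligand, was at 148, 181 and 66.02 CPM, and Ly6c2, a surface protein of memory and effector cells, at 423, 436 and 182 CPM. Fabp5, a fatty acid binding protein, was at 162, 192 and 325 CPM, highest with sIL-2 + IL-21. In other cells, sIL-2 set against sIL-2 + IL-21 differed by -1.63 for Il1r2, 1.56 for Isg15 and 1.70 for Ifi214. Tnfsf8 was at 1.52, Ly6c2 at 0.94 and Fabp5 at -1.47 there, each in the same direction as in S-phase cells.

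**Figure D5:**
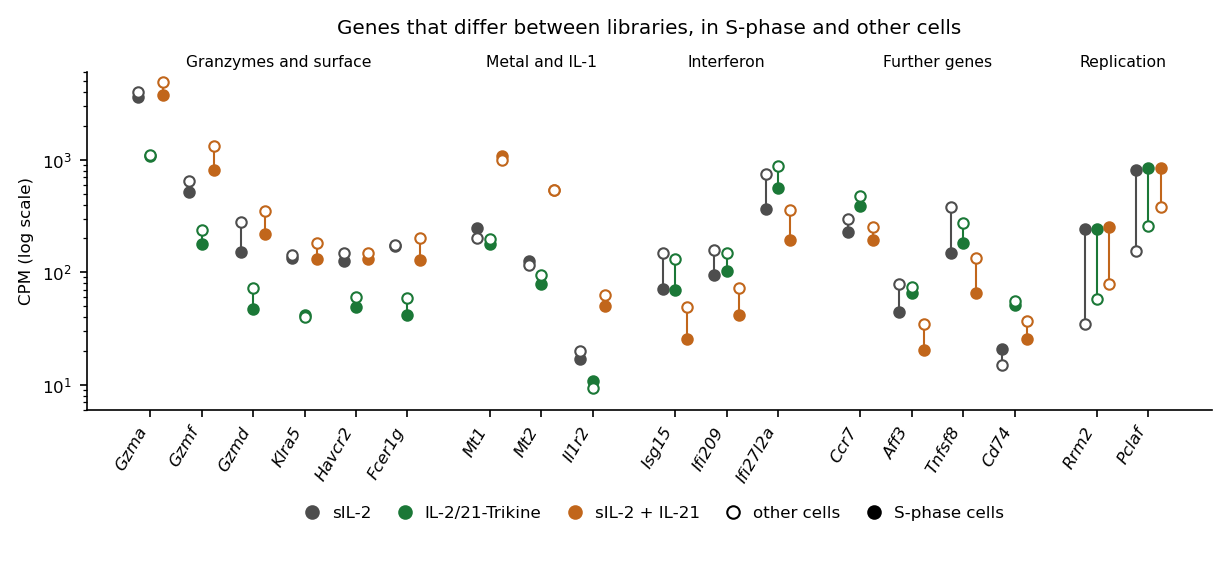
Level (CPM, log axis) of 18 genes in S-phase cells (filled points) and other cells (open points) of each library. Granzymes and Havcr2 are lowest with IL-2/21-Trikine (Gzma at 3614, 1074 and 3769 CPM in S-phase cells), Mt1 and Mt2 are highest with sIL-2 + IL-21, and Rrm2 and Pclaf differ between libraries in other cells more than in S-phase cells.

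A few genes differed between libraries to another extent in S-phase cells than in other cells, here among genes with at least 50 CPM in all 4 sums. Where IL-2/21-Trikine was set against sIL-2, H1f5 was lower by a log2 difference of -0.61 in S-phase cells and higher by 0.41 in other cells. Ccnb2, a mitotic cyclin, was at -0.29 and 0.48. None of the 11 clustered histones compared was higher in S-phase cells of the IL-2/21-Trikine library than in those of the sIL-2 library, with a median of -0.43 beside 0.23 in other cells. Of all genes compared between these S-phase cells, 1339 of 3235 were higher with IL-2/21-Trikine. Ifng was at -1.07 in S-phase cells and -0.39 in other cells, while Tnfsf8 was at 0.30 and -0.48. Csf2, the cytokine GM-CSF, was at -0.14 and -0.78, so its difference was smaller in S-phase cells, unlike that of Ifng. Where IL-2/21-Trikine was set against sIL-2 + IL-21, Klre1, a lectin-like receptor, was at 0.30 in S-phase cells and -0.30 in other cells. Ikzf2, the transcription factor Helios, was at 1.002 and 0.40, and Ccl1, a chemokine, at 0.64 and 0.12. Rgs1, a regulator of G protein signaling, was at -0.79 and -0.29. Where sIL-2 was set against sIL-2 + IL-21, Pclaf, a Pcna-binding factor, was at -0.07 in S-phase cells and -1.30 in other cells. Stmn1, a microtubule regulator of dividing cells, was at 0.10 and -0.96. Birc5 (survivin), which acts in mitosis, was at -0.16 and -1.17. With 1 library per group these differences of differences have no replicate check and were not tested.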

How the data were processed

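The files hold 3 single-cell libraries of 10x 3′ v3.1 chemistry, 1 per group, as gene by cell matrices of UMI counts. The authors deposited whole-number counts per gene and cell, after cell calling and with no normalization, made with Cell Ranger 9.0.0 per the file headers. The study's methods name a GRCm39 reference, while the submitters' processing notes list mm10, so no coordinate was taken from the files. Each library held 132104871, 167782625 and 168627825 UMIs (in the order of libraries used above) over 33696 genes. Cells kept numbered 7494 of 7805, 11524 of 13350 and 9434 of 9871. Of the cells left out, 2547 had under 2000 UMIs and 24 had over 120000. Among cells within these UMI limits, 3 exceeded 20% mitochondrial UMIs.

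UMIs were summed over S-phase cells and over other cells of each library, scaled to CPM, and compared as log2 ratios with 1 CPM added, among genes with at least 50 CPM. Intervals are exact for shares (Clopper-Pearson) and ratios of counts (conditional binomial) and approximate for ratios of shares (Katz, on the log scale), and cover counting error only. No test was run between groups, since each had 1 library. Cells were scored for doublets with Scrublet in scanpy 1.11.5; no cell was removed. The rest was computed in Python 3.11.15 (matplotlib 3.10.9, pandas 2.3.3, scipy 1.17.1, numpy 2.4.6) and tested on simulated data. The 640 variable, diversity and joining segments of antigen receptors were left out.

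The members and the 32 gene lists were chosen with earlier results of these data known, so they are no independent support. Besides list genes, the text names genes by rule: the 15 highest and 15 lowest of S-phase over other cells, ranked by the smallest log2 ratio of the 3 libraries, the 8 highest and 8 lowest between 2 libraries within S-phase cells, the 5 highest and 5 lowest differences between S-phase and other cells for each pair, and the 10 strongest patterns along the score. A few of these genes are not reported here. Also named, after their values were seen, were genes past 2-fold in all 3 libraries. Alternatives numbered 16, of which 1 was added after seeing the data. Promoters came from RefSeq, build GRCm38.p6, matched by symbol.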

Additional observations from a re-analysis of the deposited data

Results flagged for a closer look

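Cells with 500 UMIs or more and under 2000 were left out of the S-phase population, since a score at that depth rests on a median of 2 UMIs of score genes among those at or above the limit. At or above the lowest member's score were 6.39% (17 of 266) of such cells with sIL-2, 25.4% (450 of 1775) with IL-2/21-Trikine and 18.4% (67 of 364) with sIL-2 + IL-21. They drew attention because they hold a signal in data outside the comparisons. Median UMIs over all the cells counted were 1143.5, 875 and 843.5, so depth differed between the libraries too, and its part in these shares was not tested.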

How the results depend on the processing

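Of 110 alternative values of the 8 summary results (3 ratios of shares and 5 counts of genes), 87 stayed close to the reported value and 23 moved. The share of the IL-2/21-Trikine library over that of the library of sIL-2 + IL-21, whose interval spans 1, lay on either side of 1 between settings (0.852 to 1.15), and no other ratio crossed 1. None of the 30 genes named for S-phase over other cells, nor of the 48 gene and pair combinations named between libraries, changed sign. Their sizes did move, in 194 of 480 alternative values for the former and 165 of 768 for the latter. With at least 500 UMIs per cell, the IL-2/21-Trikine library's share of S-phase cells over the sIL-2 library's was 2.83, and over that of the library of sIL-2 + IL-21 it was 1.15. With the score on cells thinned to 2000 UMIs these ratios were 2.02 and 0.852, and 41 genes were higher and 3 lower in S-phase cells. With the highest 5% or 20% of cells as members, the latter ratio was 1.13 or 0.864, and with 20% the higher genes numbered 109. With each cell weighted equally, 138 genes were higher and 14 lower. Without the 10% highest G2 and mitosis scores, 117 were higher. At 20 CPM, 135 genes were higher and 16 lower, and the counts between libraries were 34 for IL-2/21-Trikine against sIL-2, 79 for IL-2/21-Trikine against sIL-2 + IL-21 and 46 for the remaining pair. At 1.5-fold the counts were 190 and 54, and 60, 137 and 113. Taking the highest 10% within each library gave 24 genes for IL-2/21-Trikine against sIL-2. The cause was not tested for any of these, beyond the wider set of genes or calls that the 20 CPM and 1.5-fold settings admit.

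Without cells under 5000 UMIs and with members otherwise as chosen, a setting chosen after seeing the data, the ratios were 2.46, 0.992 and 0.403, with 66 genes higher and 7 lower, and 15, 40 and 18 between libraries. Depth limits who is called: members chosen on separate random sets of each cell's UMIs shared 65.2% of cells, and a standardised score shared 85.6% with those reported. No paired analysis was possible because each group has 1 library.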
